A study of Mus musculus with 6 samples.

Results

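Whey acidic protein (WAP) domains are small secreted protein folds held together by disulfide bonds between cysteines, and many of the proteins that carry them block serine proteases or kill bacteria. The 10 genes described here are the Wfdc genes Wfdc1, Wfdc2, Wfdc3, Wfdc5, Wfdc12, Wfdc15b, Wfdc17, Wfdc18 and Wfdc21 together with Slpi, out of 54532 gene IDs measured. They were taken by family name. The family was chosen by the FPKM of Wfdc5, which stood among the most changed genes when 1 tumor was dropped from the comparison of the treatment groups, so the change of Wfdc5 between the groups is given as a description with no test. All 10 had reads in at least 1 tumor, and 7 had a mean of at least 0.5 FPKM (fragments scaled to exon length and library size) and were among the 15069 genes tested.

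Mammary tumors of NeuT/ATTAC mice were profiled by RNAseq after treatment with a control IgG (n = 3) or with a monoclonal antibody against the immune checkpoint receptor PD-1 (n = 3). Both groups carried the MMTV-NeuT transgene, in which the mouse mammary tumor virus promoter drives Erbb2 mainly in mammary epithelium, and the FAT-ATTAC transgene, which lets the dimerizer AP20187 ablate adipose tissue. In both groups fibrosis was induced with AP20187 at 0.4 mg/kg, starting when mice were 6 weeks old, and antibody was given at 100 μg from 8 weeks on for several months, so no tumor without fibrosis induction was compared. FAT-ATTAC came from a C57BL/6 background and was crossed into FVB, so the tumors compare antibodies within 1 cross and 1 oncogene. The labels give AP20187 as biweekly and the study's methods as triweekly, the age of each single tumor is not given in the sources used here, and a figure legend of the study speaks of pooled RNA although 3 separate libraries per group were analysed. No source says which libraries came from separate animals, so a p-value measures only the spread between these libraries.

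The tumors had 21065845 to 23843887 recovered reads, and gene levels correlated between tumors with Pearson r from 0.892 to 0.958 across genes. Of the 15069 genes, 0 (0%) passed an adjusted p of 0.05 in limma, 1848 (12.3%) had an unadjusted p under 0.05. With limma-voom on the recovered reads, 1 of 14377 genes passed the adjusted threshold. Of the 10 luminal and alveolar markers, Krt18 lay between 685 and 1385 FPKM and Epcam between 690 and 1150 FPKM. Levels in this list varied widely, with Krt19 at 1.70 to 77.9 FPKM and Csn3 at 1594 to 5677 FPKM. The adipocyte markers summed to 1.78 to 6.96 FPKM per tumor. In bulk tumors, fewer cells of a type and less RNA per cell cannot be told apart.

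SLPI, the best studied of these proteins, inhibits neutrophil elastase and cathepsin G and protects epithelial surfaces. Wfdc18, also called Expi, is a small WAP protein of the mammary epithelium, and Wfdc17, also called AMWAP, is known from activated macrophages and microglia. Wfdc2, known as HE4, is secreted by epithelia and is used as a marker of ovarian carcinoma. Wfdc12 and Wfdc15b encode antibacterial WAP proteins, and Wfdc1 was described as a stromal growth inhibitor of the prostate.

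The family is read in its sequence by its cysteines, so the coding sequences of the 4 genes on which the description turns are shown 5′ to 3′ from the GENCODE M21 transcripts, with the in-frame cysteine codons in capitals. Wfdc17 and Wfdc18 are whole, while bases 55 to 354 of Wfdc5 and bases 82 to 381 of Slpi are given, counted from the start codon, as the 300 bases richest in cysteine codons.
Wfdc5: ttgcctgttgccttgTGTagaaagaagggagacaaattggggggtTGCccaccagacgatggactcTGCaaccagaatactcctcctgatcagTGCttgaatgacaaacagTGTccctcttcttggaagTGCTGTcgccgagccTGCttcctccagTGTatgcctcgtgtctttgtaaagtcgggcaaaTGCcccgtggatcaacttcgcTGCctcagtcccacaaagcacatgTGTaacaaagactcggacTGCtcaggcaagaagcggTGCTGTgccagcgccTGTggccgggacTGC
Slpi: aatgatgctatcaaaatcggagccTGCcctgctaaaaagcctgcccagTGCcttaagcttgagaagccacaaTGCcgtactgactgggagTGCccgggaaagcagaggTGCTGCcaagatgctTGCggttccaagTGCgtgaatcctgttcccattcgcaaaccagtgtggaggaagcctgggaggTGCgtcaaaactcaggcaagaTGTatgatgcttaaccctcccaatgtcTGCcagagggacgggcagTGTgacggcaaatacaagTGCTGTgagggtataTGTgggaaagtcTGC
Wfdc17: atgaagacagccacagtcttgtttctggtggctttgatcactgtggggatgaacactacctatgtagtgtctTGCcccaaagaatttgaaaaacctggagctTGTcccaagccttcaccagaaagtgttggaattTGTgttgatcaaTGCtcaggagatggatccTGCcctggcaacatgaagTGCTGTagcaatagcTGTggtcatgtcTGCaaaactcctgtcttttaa
Wfdc18: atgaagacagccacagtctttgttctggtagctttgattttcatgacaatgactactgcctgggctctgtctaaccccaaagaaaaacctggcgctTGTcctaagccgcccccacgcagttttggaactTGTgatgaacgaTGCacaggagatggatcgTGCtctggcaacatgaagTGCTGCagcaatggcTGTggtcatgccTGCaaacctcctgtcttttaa

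Wfdc5 holds 17 cysteine codons in 381 bases and Slpi holds 17 in 396 bases, both including the stop codon. Wfdc17 holds 9 in 231 bases and Wfdc18 holds 8 in 225 bases. The other members ranged from 6 in Wfdc21 to 18 in Wfdc2. Wfdc17 and Wfdc18 were the alike pair, with 184 identical bases among 225 aligned ones (81.8%) and 6 gap columns. Their longest exact shared run was 30 bases over whole transcripts, against at most 14 for any other pair of members. Whether the authors' counting mixed reads between Wfdc17 and Wfdc18 was not tested.

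Levels per length spanned more than 3 orders of magnitude within the family. Wfdc18 was the highest member in each of the 6 tumors, at 1436 to 4195 FPKM, and ranked between 7th and 11th among all gene IDs of a tumor. It made up 95.8 to 98.7% of the summed FPKM of the 10 members and took 0.194 to 0.518% of the recovered reads of a tumor. Wfdc17 was second in 5 tumors, and Slpi was in place 3 in 4. Wfdc1, Wfdc15b and Wfdc21 lay at or under 1.01 FPKM throughout. Wfdc5 moved in this order from the 7th or 8th place in the IgG tumors to the 4th, 2nd and 4th place in the anti-PD-1 tumors.

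**Figure D1:**
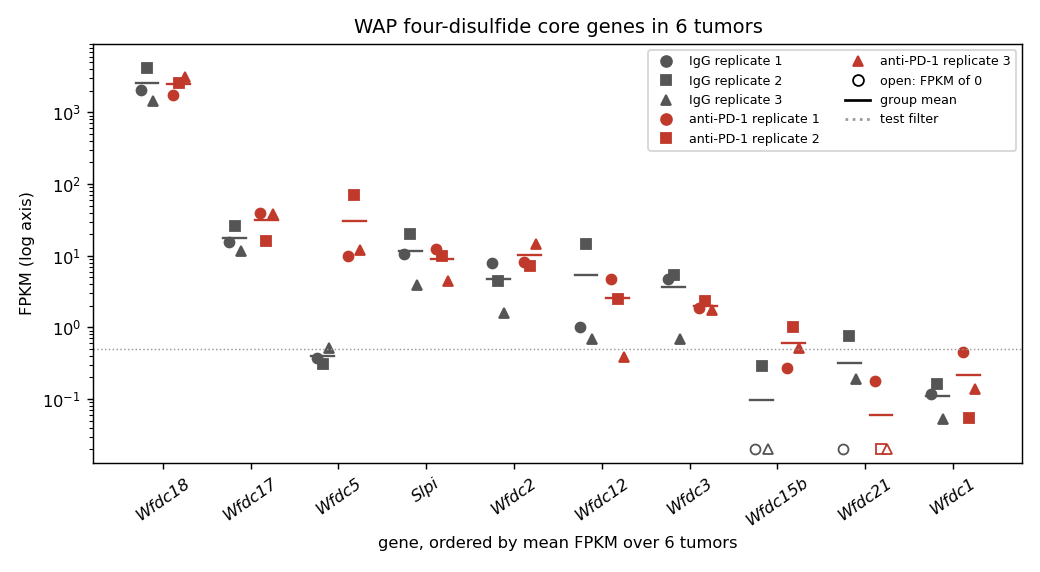
FPKM of the 10 members in each tumor on a log axis, with grey symbols for IgG and red ones for anti-PD-1 tumors, a shape for each replicate, bars at the group means, open symbols at the bottom for values of 0, and a dotted line at the test filter of 0.5 FPKM. Wfdc18 lies at 1436 FPKM or more in every tumor, and Wfdc5 is the member whose groups stand farthest apart, at 0.305 to 0.512 FPKM in the IgG tumors and 9.96 to 70.3 FPKM in the anti-PD-1 tumors.

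Wfdc5 is a predicted secreted WAP inhibitor, encoded on the minus strand at chr2:164176327-164182742 (GRCm38). It had 0.372, 0.305 and 0.512 FPKM in IgG tumors 1, 2 and 3 and 9.96, 70.3 and 11.9 FPKM in anti-PD-1 tumors 1, 2 and 3. All IgG tumors were low, all anti-PD-1 tumors were higher, and anti-PD-1 tumor 2 stood above the others of its group. The IgG values rested on 19, 17 and 29 reads and the anti-PD-1 values on 592, 3958 and 658 reads. The group means were 0.396 ± 0.105 FPKM (SD, n = 3) and 30.7 ± 34.3 FPKM (SD, n = 3), a ratio of 77.6. The lowest anti-PD-1 tumor was 19.5 times the highest IgG tumor.

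On the log2(FPKM + 1) scale the difference of Wfdc5 was 3.95 (SE 0.66), the 2nd largest in size of the 15069 tested genes. With 1 tumor left out it ranked between 1st and 7th by size, and 7th without anti-PD-1 tumor 1 or 2. The ratio of the group means was 27.6 without anti-PD-1 tumor 2 and lay between 69.6 and 104 when any other tumor was left out. The log2 difference without anti-PD-1 tumor 2 was 3.10. These values come from the contrast that selected the gene and are a description.

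**Figure D2:**
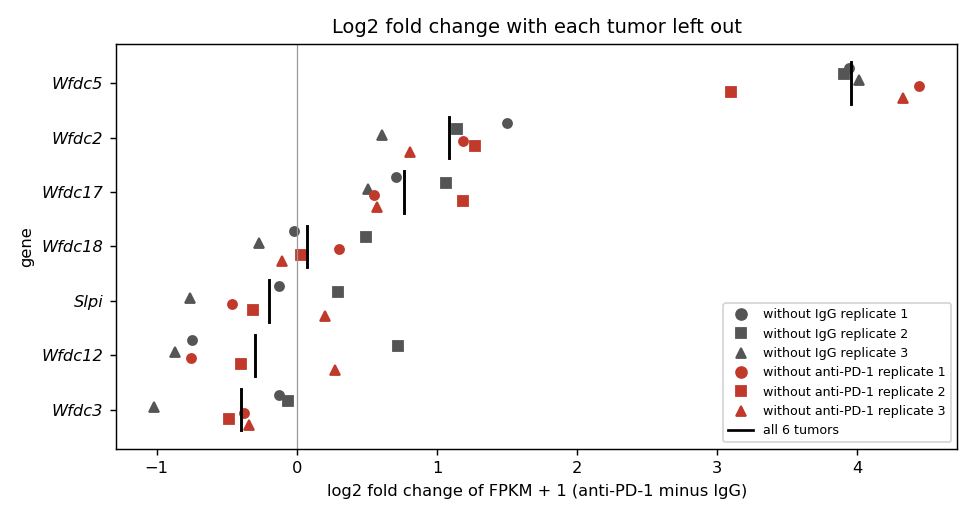
Log2 fold change of each tested member (anti-PD-1 minus IgG, on FPKM + 1) with all 6 tumors (black line) and in the 6 fits that each lack 1 tumor (symbols, grey for an IgG tumor and red for an anti-PD-1 tumor). Wfdc5 stays between 3.10 and 4.44, whereas Wfdc12, Wfdc18 and Slpi have values on both sides of 0.

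Among genes with at least 0.5 FPKM on average, those following the Wfdc5 pattern most closely over the 6 tumors were Gm24507 (r = 0.995), Pask (r = 0.993) and Gm12426 (r = 0.991). Pask, which encodes a PAS domain kinase, ranged only from 1.27 to 2.35 FPKM. Gm24507, a small nucleolar RNA, and Gm12426, an antisense transcript, were listed at 0 in the 3 IgG tumors and had at most 10 and 19 reads. A total of 49 genes had r over 0.95 with Wfdc5, and with 6 points that share the group difference such values are a description.

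A transcript on the opposite strand, A730032A03Rik at chr2:164177584-164196564, overlaps both Wfdc5 and Wfdc12. It had 0.0422, 0.174 and 0.0381 FPKM in the IgG tumors and 0.944, 3.26 and 0.743 FPKM in the anti-PD-1 tumors. Its groups were also apart, with the highest value again in anti-PD-1 tumor 2, and its log2 fold change was 1.16 (SE 0.36). It passed the filter only through the anti-PD-1 group and shares its place with the gene that chose the family, so this value is a description with no test. There were 9.5, 1.89 and 14.5 Wfdc5 reads for each of its reads in the IgG tumors and 11.4, 23.3 and 17.3 in the anti-PD-1 tumors. Whether strand was used in counting is not given in the sources used here, so reads of Wfdc5, Wfdc12 and this transcript cannot be told apart where they overlap.

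A gene is termed called where it passed an unadjusted p under 0.05 with a 1.5-fold change. Of the 6 tested members other than Wfdc5, 0 were called and 0 passed an adjusted p of 0.05, while 8.43% of all tested genes were called (3.9% higher and 4.53% lower). The groups overlapped for all 6, while they were apart for 18.1% of all tested genes. The SD within groups of the 7 tested members lay between the 90.0th and the 99.5th percentile of all tested genes on the log2 scale, so their differences are read against a wide spread between tumors.

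Wfdc18 and Wfdc17 lie side by side on the plus strand of chromosome 11, Wfdc17 at chr11:83703991-83706268 and Wfdc18 at chr11:83709015-83711348. Wfdc18 had 2025, 4195 and 1436 FPKM in the IgG tumors and 1743, 2578 and 3109 FPKM in the anti-PD-1 tumors. The highest and the lowest tumor were both IgG tumors, 2 and 3, and the groups overlapped. The means were 2552 ± 1453 FPKM (SD, n = 3) and 2477 ± 689 FPKM (SD, n = 3), with a log2 fold change of 0.07 (SE 0.45, 95% interval -1.0 to 1.14, limma adjusted p = 0.963). The two-sided exact permutation test gave p = 1. The sign of this near-zero difference turned when IgG tumor 1 or 3 or anti-PD-1 tumor 3 was left out, with values from -0.27 to 0.50.

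The FPKM of Wfdc18 was scaled to 1220 bases of merged exons, whereas its coding transcript has 521 bases, so its level per base of that transcript is understated beside genes whose transcripts fill their merged exons. The genes closest to Wfdc18 over the 6 tumors were Ppfia4 (r = 0.988), Sgpp1 (r = 0.987) and BC147527 (r = 0.982). Ppfia4 ranged from 1.02 to 1.26 FPKM and Sgpp1, a sphingosine-1-phosphate phosphatase, from 16.8 to 20.01 FPKM. BC147527 ranged from 0.308 to 1.44 FPKM.

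Wfdc17 had 15.4, 26.0 and 11.5 FPKM in the IgG tumors and 39.1, 15.9 and 38.5 FPKM in the anti-PD-1 tumors. Anti-PD-1 tumors 1 and 3 were the highest, and anti-PD-1 tumor 2 lay within the IgG range. The means were 17.6 ± 7.49 and 31.2 ± 13.3 FPKM (SD, n = 3 each), with a log2 fold change of 0.76 (SE 0.41, 95% interval -0.21 to 1.74, limma adjusted p = 0.483) and p = 0.2 in the two-sided exact permutation test. The difference was 1.18 without anti-PD-1 tumor 2 (limma adjusted p = 0.502) and 1.06 without IgG tumor 2 (limma adjusted p = 0.761), and in both it was called. In these smaller comparisons 4.3% and 2.34% of all tested genes passed in the higher direction.

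The summed level of the macrophage markers was 535, 613 and 386 FPKM in the IgG tumors and 765, 420 and 812 FPKM in the anti-PD-1 tumors, so that anti-PD-1 tumors 1 and 3 were the highest, as for Wfdc17. This sum is carried by Lyz2 and the C1q genes, and 8 of the 10 markers were highest in 1 of these tumors. Lyz2 and C1qa, both macrophage products, ranged from 131 to 350 and from 97.3 to 208 FPKM. Of the 10 macrophage markers, all tested, 1 was called higher and 0 lower, with a median log2 fold change of 0.33 against 0.01 over all tested genes. The called gene was Cd68, a lysosomal glycoprotein of macrophages, at 0.76 (SE 0.19, limma adjusted p = 0.344). Unlike Wfdc17 it was highest in anti-PD-1 tumor 2, at 30.7 FPKM. Adgre1, which encodes F4/80, had 5.28 to 9.36 FPKM and a log2 fold change of 0.01 (SE 0.23). Whether macrophage content plays a part in the Wfdc17 values was not tested.

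Wfdc18 exceeded Wfdc17 by 131, 162 and 125 times in the IgG tumors and by 44.6, 163 and 80.7 times in the anti-PD-1 tumors. Of the 10 members, 7 are in the RefSeq promoter table (GRCm38.p6), while Wfdc1, Wfdc5 and Wfdc21 are not. Wfdc17 and Wfdc18 are neighbours with such different levels that their upstream bases are shown. These are the 250 bases before each RefSeq start, 5′ to 3′ on the plus strand. Capitals mark identical runs of at least 5 bases in the local alignment of the 300-base windows. Runs of Wfdc17 past AAAAA align with Wfdc18 bases beyond its RefSeq start, which are not shown. The GENCODE start of Wfdc17, 83703991, lies inside its stretch, so the end of that stretch is within the annotated gene. The Wfdc18 stretch ends before the GENCODE start of Wfdc18, 83709015.
Wfdc17, chr11:83703806-83704055: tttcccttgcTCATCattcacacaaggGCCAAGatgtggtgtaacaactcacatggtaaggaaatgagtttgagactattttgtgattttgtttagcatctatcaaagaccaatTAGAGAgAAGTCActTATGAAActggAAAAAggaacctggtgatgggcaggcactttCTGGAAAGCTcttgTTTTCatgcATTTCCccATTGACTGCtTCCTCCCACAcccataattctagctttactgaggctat
Wfdc18, chr11:83708754-83709003: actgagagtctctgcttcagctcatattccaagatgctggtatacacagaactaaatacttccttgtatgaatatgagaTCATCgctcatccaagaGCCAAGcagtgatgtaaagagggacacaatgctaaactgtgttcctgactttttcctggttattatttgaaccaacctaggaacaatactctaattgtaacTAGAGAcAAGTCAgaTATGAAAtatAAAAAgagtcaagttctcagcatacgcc

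The alignment of the windows, which reach 50 bases past the starts, held 155 identical bases in 234 columns (66.2%). The motif TATAAA, searched on both strands, was in the windows of Wfdc17 and Wfdc18 and of no other member in the table. It was in 13.6% of all 32851 promoters, and its Wfdc17 match is not within the bases shown. CCAAT was in those of Wfdc3, Wfdc15b and Wfdc17 and in 37.4% of all promoters. TTCNNNGAA (8.3% of all promoters) and TGANTCA (7.81%) were in none of the members' windows. A match is a description of these letters only.

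Slpi lies on the minus strand at chr2:164354070-164389095. It had 10.7, 20.1 and 3.85 FPKM in the IgG tumors and 12.4, 9.92 and 4.39 FPKM in the anti-PD-1 tumors. IgG tumor 2 was the highest, tumor 3 of either group was low, and the groups overlapped. Its log2 fold change was -0.20 (SE 0.56, 95% interval -1.52 to 1.13, limma adjusted p = 0.907), with p = 0.9 in the two-sided exact permutation test. The sign turned to 0.29 without IgG tumor 2 and to 0.20 without anti-PD-1 tumor 3.

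Of the proteases that SLPI is known to inhibit, Elane, neutrophil elastase, had at most 0.0462 FPKM, and Ctsg, cathepsin G, was listed at 0 in all 6 tumors. The mast cell proteases were detected, with up to 2.58 FPKM for the chymase Cma1, 2.78 FPKM for the chymase Mcpt4 and 4.95 FPKM for the tryptase Tpsb2, and Prtn3, neutrophil proteinase 3, reached 2.2 FPKM. Of the list of 10 leukocyte serine proteases and SLPI partners, 8 were tested, of which 1 was called higher and 0 lower, with a median log2 fold change of -0.06. The called gene was the mast cell tryptase Tpsab1. It had 0.130, 0.0796 and 0.137 FPKM in the IgG tumors and 1.08, 0.492 and 2.01 FPKM in the anti-PD-1 tumors. Its log2 fold change was 0.92 (SE 0.29). It passed the filter only through the anti-PD-1 group, where it was high. Its call depends on the filter, so this value and the call are a description with no test. Grn, the progranulin that SLPI binds, had 63.6 to 89.4 FPKM, with a log2 fold change of 0.14 (SE 0.18). Anxa2, the annexin that SLPI binds on membranes, had 54.3 to 131 FPKM, and Plscr1, a scramblase that binds SLPI, had 7.31 to 16.3 FPKM.

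The neutrophil markers in the tumors were led by Ltf, lactoferrin, which mammary epithelium also makes. Ltf had 56.8, 953 and 19.8 FPKM in the IgG tumors and 56.4, 116 and 14.3 FPKM in the anti-PD-1 tumors, with the highest value in IgG tumor 2. Ly6g and Retnlg had at most 0.306 and 0.281 FPKM. Of the 11 neutrophil markers 4 were tested and none was called, with a median log2 fold change of 0.33. S100a8 and S100a9, calgranulins, reached 21.1 and 4.94 FPKM.

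Wfdc2 lies on the plus strand at chr2:164562413-164568510. It had 7.97, 4.50 and 1.58 FPKM in the IgG tumors and 8.26, 7.27 and 14.8 FPKM in the anti-PD-1 tumors. The groups met at IgG tumor 1, which lay between anti-PD-1 tumors 2 and 1. The means were 4.68 ± 3.20 and 10.1 ± 4.08 FPKM (SD, n = 3 each), with a log2 fold change of 1.08 (SE 0.46, 95% interval -0.01 to 2.18, limma adjusted p = 0.411). The two-sided exact permutation test gave p = 0.2, where 0.1 is the smallest p that 3 tumors against 3 allow. Without IgG tumor 1 the difference was 1.5 (limma adjusted p = 0.150) and called, in a comparison where 6.63% of all tested genes passed in the higher direction.

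Wfdc3 lies on the minus strand at chr2:164731180-164745931. It had 4.78, 5.35 and 0.680 FPKM in the IgG tumors and 1.87, 2.35 and 1.76 FPKM in the anti-PD-1 tumors. IgG tumors 1 and 2 were the highest and IgG tumor 3 the lowest, with all anti-PD-1 tumors between them. The log2 fold change was -0.40 (SE 0.49, 95% interval -1.55 to 0.74, limma adjusted p = 0.763), with p = 0.4 in the two-sided exact permutation test. Without IgG tumor 3 it was -1.02 (limma adjusted p = 0.488) and called, where 3.74% of all tested genes passed in the lower direction.

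Wfdc12 lies on the minus strand at chr2:164189231-164190608. It had 0.997, 14.4 and 0.687 FPKM in the IgG tumors and 4.74, 2.5 and 0.380 FPKM in the anti-PD-1 tumors. IgG tumor 2 stood above all others with 267 reads, against 7 reads in anti-PD-1 tumor 3, and the groups overlapped. The log2 fold change was -0.30 (SE 0.90, 95% interval -2.40 to 1.81, limma adjusted p = 0.913), with p = 0.8 in the two-sided exact permutation test. It was 0.72 without IgG tumor 2 and 0.27 without anti-PD-1 tumor 3. Wfdc5 and Wfdc12 are adjacent members of the locus. Their ratio in FPKM, Wfdc5 over Wfdc12, was 0.373, 0.0213 and 0.745 in the IgG tumors and 2.10, 28.1 and 31.4 in the anti-PD-1 tumors. It holds the values of Wfdc5 that chose the family, so it is a description with no test.

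The 3 remaining members were under the filter of the main comparison. With no filter, their log2 fold changes were 0.53 for Wfdc15b (limma adjusted p = 0.594), -0.28 for Wfdc21 (limma adjusted p = 0.737) and 0.12 for Wfdc1 (limma adjusted p = 0.766), and none was called. Wfdc15b, at chr2:164214454-164221660, had 0, 4 and 0 reads in the IgG tumors and 4, 14 and 7 in the anti-PD-1 tumors, which is at most 1.01 FPKM, with p = 0.2 in the two-sided exact permutation test. Wfdc21, at chr11:83746940-83752642, had 0, 8 and 2 reads in the IgG tumors and 2, 0 and 0 in the anti-PD-1 tumors, with an exact permutation p = 0.4. Wfdc1, at chr8:119666365-119688222, had 4, 6 and 2 reads in the IgG tumors and 18, 2 and 5 in the anti-PD-1 tumors, with an exact permutation p = 0.6, and it overlaps Gm32352. Such counts cannot show a moderate difference, since 3 reads on a gene of 1 kb correspond to 0.117 to 0.136 FPKM at these depths.

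IgG tumor 2 held the highest value of 4 of the 7 tested members, namely Wfdc3, Wfdc12, Wfdc18 and Slpi, while 20.6% of all tested genes were highest in that tumor. The untested Wfdc21 was highest there too, with 8 reads. IgG tumor 2 was also the highest tumor for Wap, the whey acidic protein of milk that names the domain, with 1.44, 16.9 and 0.610 FPKM in the IgG tumors and 10.5, 0.327 and 0.334 FPKM in the anti-PD-1 tumors. Of the 10 luminal and alveolar markers 5 were highest in that tumor, namely Krt19, Elf5, Kit, Csn2 and Csn3, whereas Krt8, Krt18, Epcam, Lalba and Erbb2 were highest in others. The milk protein Csn3 (kappa-casein) had 5677 FPKM there against 1594 to 3215 FPKM in the other 5 tumors. Lalba, the milk protein alpha-lactalbumin, had 864 FPKM there and 1238 FPKM in IgG tumor 3. Krt19, a luminal keratin, had 77.9 FPKM there against 1.70 to 7.84 FPKM elsewhere. Whether the differentiation state of that tumor plays a part in the members' values was not tested.

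**Figure D3:**
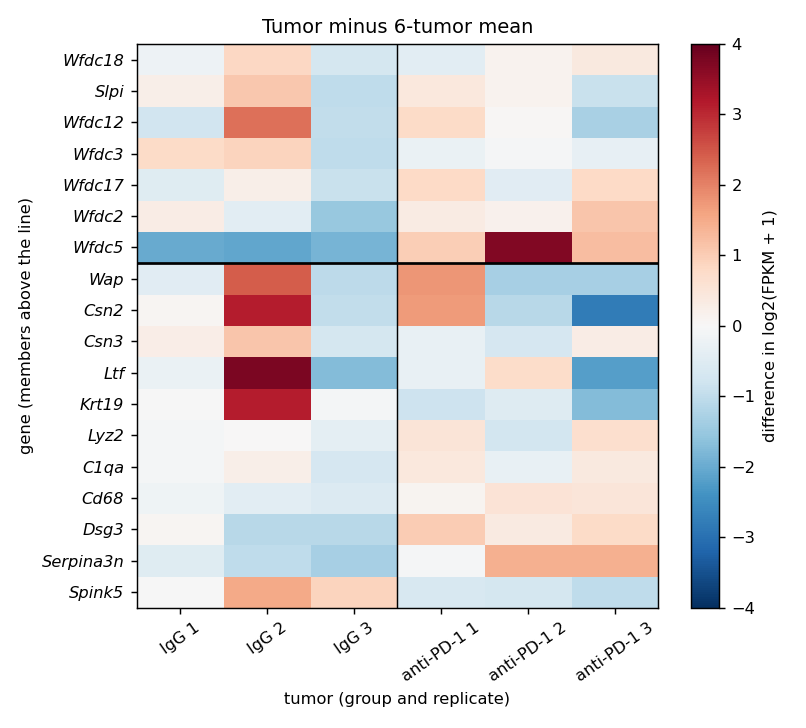
Difference of each tumor from the mean of all 6 tumors in log2(FPKM + 1), for the 7 tested members above the line and for milk protein, macrophage, inhibitor and keratinocyte genes below it, of which Csn2 was picked after its values were seen. IgG tumor 2 is above the mean for Wfdc18, Slpi, Wfdc12, Wap, Csn3, Ltf and Krt19, and Wfdc5 is below the mean in the 3 IgG tumors and above it in the 3 anti-PD-1 tumors.

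Of the 10 luminal and alveolar markers, all tested, 2 were called lower and 0 higher, with a median log2 fold change of -0.52. They were Kit, a receptor of luminal progenitors, at -0.85 (SE 0.25, limma adjusted p = 0.346), and Krt19 at -2.03 (SE 0.85, limma adjusted p = 0.404). The groups were apart for 4 of the 10, against 18.1% of all tested genes. Besides Kit and Krt19 these were Epcam and Erbb2, which were not called and lay the other way, at 0.43 (SE 0.22, limma adjusted p = 0.462) and 0.34 (SE 0.15, limma adjusted p = 0.424). Krt8 and Krt18 had log2 fold changes of 0.41 and 0.34. Among the 5 basal markers 4 were tested and 1, Krt17, was called lower at -0.66 (SE 0.24), with a median of -0.59. Krt17 passed the filter only through the IgG group, where it was high, so this value and its call are a description with no test. The call of Kit was kept whichever tumor was left out, that of Krt19 was lost without any 1 of the anti-PD-1 tumors, and that of Krt17 was lost without IgG tumor 2 or 3 or anti-PD-1 tumor 2 or 3. Krt19 was at -0.97, still called, without IgG tumor 2.

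Because WAP inhibitors are also made by keratinizing epithelium, squamous markers were read beside Wfdc5. Their sum was 2.12 to 3.78 FPKM in the IgG tumors and 4.27 to 7.05 FPKM in the anti-PD-1 tumors. Without Dsg3 the sums overlapped, at 1.70 to 3.46 and 1.65 to 2.29 FPKM. Dsg3, a desmosomal cadherin of squamous epithelium, had 1.96, 0.314 and 0.309 FPKM in the IgG tumors and 4.76, 2.62 and 3.82 FPKM in the anti-PD-1 tumors, with a log2 fold change of 1.43 (SE 0.36, limma adjusted p = 0.344). It was the 1 marker called of 3 tested, and the median was -0.03. Ivl, Sprr1b and Sprr2d, which belong to the cornified envelope, were listed at 0 in all tumors, and Krt1 had at most 0.0472 FPKM. The part of such cells in the Wfdc5 values was not tested.

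Outside the family, 12 of 13 other serine protease inhibitors were tested, of which 2 were called higher and 1 lower, with a median log2 fold change of 0.09. Serpina3n, a secreted acute-phase serpin, had 46.2, 31.5 and 25.2 FPKM in the IgG tumors and 62.9, 174 and 172 FPKM in the anti-PD-1 tumors, with a log2 fold change of 1.87 (SE 0.42, limma adjusted p = 0.344). Serpinf1, the angiogenesis inhibitor PEDF, was the other gene called higher, at 1.01 (SE 0.42, limma adjusted p = 0.399), a call that was lost without IgG tumor 2 or 3 or anti-PD-1 tumor 1 or 3. Spink5 inhibits kallikreins of the skin. It had 1.07, 5.09 and 2.89 FPKM in the IgG tumors and 0.351, 0.302 and 0.0440 FPKM in the anti-PD-1 tumors. Its log2 fold change was -1.57 (SE 0.39). It passed the filter only through the IgG group, where it was high, so this value and its call are a description with no test. The Kunitz inhibitors Spint1 and Spint2 had log2 fold changes of -0.09 (SE 0.18) and 0.05 (SE 0.18), at 49.4 to 70.2 and 111 to 145 FPKM.

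The remaining relatives of the family were mostly silent. Of 16 further WAP and Kunitz genes, 11 were listed at 0 in all tumors and only Wap was tested, with a log2 fold change of -0.59 (SE 1.12, limma adjusted p = 0.856). Wfdc13, a neighbour of the chromosome 2 members, had reads in anti-PD-1 tumor 2 alone, at 0.269 FPKM.

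The 6 members on chromosome 2 are spread over 570 kb. With 100 kb on either side this locus held 57 annotated genes, of which 46 are protein-coding and 14 of those were listed at 0 in all tumors. The 17 tested genes of the locus that are no members had log2 fold changes from -0.25 to 1.16 with a median of 0.10. The highest was that of the overlapping A730032A03Rik, described above without a test, and of the other 16 none was called. The syndecan Sdc4 and the GPI transamidase subunit Pigt, which lie near Slpi and Wfdc2 in this locus, had log2 fold changes of -0.10 and -0.25. On chromosome 11, where 3 members lie within 48.7 kb, the tested genes that are no members were the chemokines Ccl3 and Ccl4 and Heatr6, with log2 fold changes of -0.13, 0.26 and 0.09, and none was called.

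**Figure D4:**
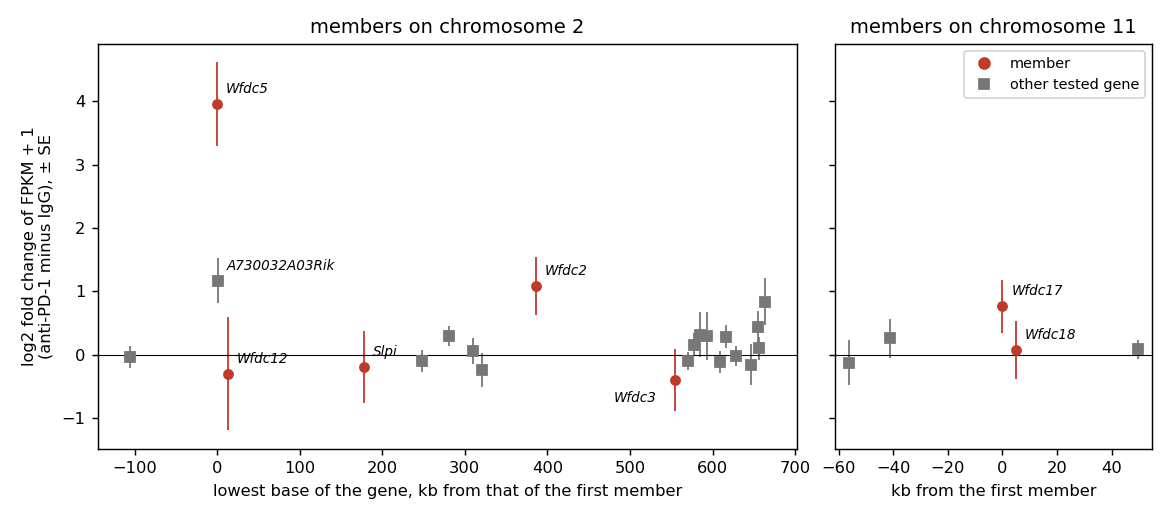
Log2 fold change (anti-PD-1 minus IgG, on FPKM + 1, ± SE) of the tested genes along the members' loci on chromosomes 2 and 11, against the distance in kb from the first member. Members are circles and other tested genes squares, and Wfdc5 is at 3.95, while the squares run from -0.25 to 1.16 and the other members from -0.40 to 1.08.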

How the data were processed

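RNA of 6 mammary tumors (3 IgG, 3 anti-PD-1) was sequenced, and the authors deposited 1 FPKM table per tumor with 54532 Ensembl IDs. The submitters' processing notes name mm10, FastQC 0.11.9, cutadapt 3.5, Bowtie2 2.4.1 and RSEM 1.3.1, while how the FPKM were made and whether strand was used are not given in the sources used here. GENCODE M21 (GRCm38) matched 54409 IDs. FPKM times merged exon length gave whole counts (within 0.1) for 97.0 to 97.3% of the values above 0, and these recovered reads give the depths.

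The FPKM were divided by median-of-ratios factors, and log2(value + 1) was fitted with limma 3.58.1 (lmFit, eBayes with trend) over the 15069 genes with a mean of at least 0.5 FPKM, with two-sided tests and Benjamini-Hochberg adjustment. A fold change on this scale understates that of low genes. "Called" means an unadjusted p under 0.05 and a 1.5-fold change. Single members were also compared by two-sided exact permutation tests, and the fit was tested on simulated data. No list was given a set test.

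Named genes were the members, of each list up to 3 genes with the highest mean and up to 2 with the smallest p, the neighbours, and the 3 genes most like Wfdc5 and Wfdc18. Others named in passing, among them absent markers and list genes given for their role, were picked after their values were seen. Members and lists were chosen with earlier results of these data known. Alternatives were another pseudocount, filters, scalings, limma-voom on recovered reads, a replicate block and leaving out each tumor.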

Additional observations from a re-analysis of the deposited data

How the results depend on the processing

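Of the 14 alternatives, those that kept all 6 tumors left the direction of each tested member as reported. With a filter of at least 2 FPKM and with limma-voom on recovered reads, Wfdc2 was called, at log2 fold changes of 1.08 and 1.33, so that 1 member other than Wfdc5 was called in place of 0. In these fits 469 of 11083 and 638 of 14377 genes were called higher. Wfdc5 was at 5.39 with a pseudocount of 0.1 and at 5.68 with limma-voom, where its low IgG values weigh more. Limma-voom gave 1 gene past the adjusted threshold.

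Leaving out 1 tumor gave 0.60 to 1.5 for Wfdc2, -1.02 to -0.064 for Wfdc3, -0.87 to 0.72 for Wfdc12, 0.51 to 1.18 for Wfdc17, -0.27 to 0.50 for Wfdc18, -0.76 to 0.29 for Slpi and 3.10 to 4.44 for Wfdc5, with 0 to 1 members other than Wfdc5 called. Wfdc12 turned to 0.72 without IgG tumor 2 and to 0.27 without anti-PD-1 tumor 3. Wfdc18 turned to -0.02, -0.27 and -0.11 without IgG tumor 1, IgG tumor 3 and anti-PD-1 tumor 3. Slpi turned to 0.29 and 0.20 without IgG tumor 2 and anti-PD-1 tumor 3. The cause was not tested. Over all genes 352 (without IgG tumor 2) to 999 (without IgG tumor 1) were called higher and 386 to 1234 lower, by the same tumors, and 0 to 12 passed the adjusted threshold.

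The groups share replicate numbers, and no label says that these pair the tumors. The deviations of same-numbered tumors correlated at -0.16, 0.01 and 0.19, and those of differently numbered tumors between -0.26 and 0.24. With 3 tumors in a group these values can neither show nor exclude a pairing. With a replicate block 663 genes were called higher and 671 lower, Wfdc2 stayed at 1.08 and no member's call changed. Depth limits Wfdc1, Wfdc15b and Wfdc21, whose counts stay at 18 reads or fewer.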

Other observations

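The 10 fibroblast and smooth muscle markers summed to 87.1 to 241 FPKM in the IgG tumors and 105 to 350 FPKM in the anti-PD-1 tumors, and 0 of the 10 were called, with a median log2 fold change of 0.19. The groups were apart for 1 of them, Cnn1, a smooth muscle calponin, at 0.487 to 1.0 FPKM in the IgG tumors and 0.186 to 0.431 FPKM in the anti-PD-1 tumors, against 18.1% of all tested genes. Cnn1 was over the filter in the IgG group alone, where it was high. Col1a1, the main fibrillar collagen chain, had 94.2, 17.5 and 34.5 FPKM in the IgG tumors and 124, 31.8 and 72.1 FPKM in the anti-PD-1 tumors, with a log2 fold change of 0.76 (SE 0.67, limma adjusted p = 0.666).

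None of the 6 T cell markers reached the filter, and they summed to 1.37 to 3.21 FPKM in the IgG tumors and 0.446 to 1.63 FPKM in the anti-PD-1 tumors. Of the 5 mast cell markers 4 were tested and none was called, with a median log2 fold change of 0.02. The tryptase Tpsab1, called higher and described above without a test, stands in the list of proteases and not in this one. Their sum was highest in anti-PD-1 tumor 1 at 11.9 FPKM and in IgG tumor 3 at 9.03 FPKM. Fabp4 was the 1 adipocyte marker of 5 that was tested, at -0.32 (SE 0.38, limma adjusted p = 0.756).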
